A study of Mus musculus with 6 samples.

Results

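The genes described here build fatty acids and sterols: 37 mouse genes taken by symbol from a table of raw read counts that lists 20140 genes, all 37 of them listed and all 37 among the 16370 genes that passed a filter on low counts. They fall into a fatty acid arm of 19 genes (acetyl-CoA and NADPH supply, chain synthesis, desaturation, triglyceride assembly and the regulators Srebf1, Mlxipl, Thrsp and Pnpla3), a sterol arm of 15 genes (the mevalonate pathway, the steps from squalene to cholesterol, Srebf2 and Stard4) and 3 genes that hold or release the SREBP precursors (Insig1, Insig2 and Scap). Poly(A) RNA of 6 whole livers was sequenced, 2 per group, all taken on day 21 from mice, BALB/c in the study's description of these models. The labels of the sham group give PBS where the others give CT26 as the cell line. The intra.C group carried CT26 cells, a mouse colorectal carcinoma line, implanted in the cecum, a state the study calls the premetastatic niche, and the intra.S group received CT26 cells by injection into the spleen, which seeds metastases in the liver. The sample titles name the groups only as control, intra-C and intra-S, and the site of the cells was taken from the study's text. Neither feeding before collection nor the hour of collection was given in the sources used here, and the mice's age was given only as a range for all tumor models.

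Sterol regulatory element-binding proteins (SREBPs) are transcription factors made as membrane-bound precursors. SCAP escorts a precursor from the endoplasmic reticulum to the Golgi, where proteases free its active part, and INSIG proteins hold SCAP back when sterols are plentiful. In liver, SREBP1c, one product of Srebf1, responds to insulin and drives fatty acid genes together with ChREBP (Mlxipl), which responds to sugar. SREBP2 (Srebf2) drives cholesterol synthesis when cell sterols run low. Insig1 is itself an SREBP target, whereas hepatic Insig2 is known for being higher in fasting and lower under insulin.

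Upstream windows are shown for the 6 genes that mark the ends of the pattern described below: the member with the largest decrease (Thrsp), a regulator that was lower (Mlxipl), a pair of sterol arm genes that split the intra.S livers (Hmgcs1 and Cyp51) and the genes of the pair that hold SCAP back (Insig1 and Insig2). Each run holds the 150 bases before an annotated transcription start in RefSeq, assembly GRCm38.p6, the assembly that mm10 names, read 5′ to 3′ on the gene's strand. Capitals mark matches on either strand to 4 motifs: the sterol regulatory element TCACNCCAC, the CCAAT box CCAAT, the GC box GGGCGG and the E-box CACGTG. No motif overlapped another in these windows.
Thrsp, chr7:97417551-97417700, minus strand: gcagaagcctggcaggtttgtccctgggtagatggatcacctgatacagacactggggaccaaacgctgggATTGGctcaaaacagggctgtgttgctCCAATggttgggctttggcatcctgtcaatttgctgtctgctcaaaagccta
Mlxipl, upstream start, chr5:135089740-135089889, plus strand: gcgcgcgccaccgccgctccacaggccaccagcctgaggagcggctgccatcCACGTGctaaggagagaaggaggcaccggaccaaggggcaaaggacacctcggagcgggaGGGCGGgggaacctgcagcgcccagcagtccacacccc
Mlxipl, downstream start, chr5:135106741-135106890, plus strand: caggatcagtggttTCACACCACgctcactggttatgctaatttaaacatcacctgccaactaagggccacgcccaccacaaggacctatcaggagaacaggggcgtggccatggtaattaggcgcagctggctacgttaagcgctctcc
Hmgcs1, chr13:119690201-119690350, plus strand: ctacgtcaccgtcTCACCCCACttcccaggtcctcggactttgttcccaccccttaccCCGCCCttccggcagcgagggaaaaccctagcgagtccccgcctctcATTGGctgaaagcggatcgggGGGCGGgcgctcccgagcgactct
Cyp51, chr5:4104698-4104847, minus strand: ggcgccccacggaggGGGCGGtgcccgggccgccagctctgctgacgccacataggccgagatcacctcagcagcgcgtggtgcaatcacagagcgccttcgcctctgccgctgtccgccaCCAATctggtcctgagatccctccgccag
Insig1, chr5:28071262-28071411, plus strand: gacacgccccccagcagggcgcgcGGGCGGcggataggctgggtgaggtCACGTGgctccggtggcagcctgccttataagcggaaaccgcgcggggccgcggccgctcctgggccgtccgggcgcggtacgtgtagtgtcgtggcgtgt
Insig2, most upstream start, chr1:121332590-121332739, minus strand: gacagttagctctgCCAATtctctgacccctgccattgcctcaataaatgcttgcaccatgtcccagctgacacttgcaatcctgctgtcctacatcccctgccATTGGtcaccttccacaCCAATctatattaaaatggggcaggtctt
Insig2, middle start, chr1:121328025-121328174, minus strand: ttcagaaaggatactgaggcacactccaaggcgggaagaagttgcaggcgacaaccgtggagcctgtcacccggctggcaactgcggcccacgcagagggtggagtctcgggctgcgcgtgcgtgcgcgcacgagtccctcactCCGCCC
Insig2, most downstream start, chr1:121327679-121327828, minus strand: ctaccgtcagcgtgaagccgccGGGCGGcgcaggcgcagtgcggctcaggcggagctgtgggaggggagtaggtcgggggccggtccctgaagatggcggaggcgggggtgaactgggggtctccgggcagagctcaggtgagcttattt

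Of the 37 members, 29 had at least 1 window in the RefSeq table, each from 250 bases before to 50 bases after a start. The sterol regulatory element letters were found in 1 of 15 fatty acid arm genes (Mlxipl) and 1 of 11 sterol arm genes (Hmgcs1), against 1.44% of all genes in the table and 1.24% of its 32851 windows. The CCAAT box was found in 11 of 15 fatty acid arm genes and 11 of 11 sterol arm genes, against 41.1% of all genes in the table and 37.4% of its windows. The GC box was found in 8 of 15 and 10 of 11, against 38.2% of genes, and the E-box in 2 of 15 and 2 of 11, against 8.09% of genes. A match is a description of letters and not a binding site, and the counts below do not tell which start of Mlxipl or Insig2 was used.

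Depth was similar across the livers, between 32838321 and 43368309 counts assigned to genes. Levels are given as CPM, counts scaled to a common library size after TMM normalization, and 3 counts, the limit that a count of 0 allows, correspond to at most 0.0928 CPM. No member had a count of 0 in any liver, and the shallowest member, Pnpla3, lay between 0.407 and 3.40 CPM. The defining hepatocyte marker Alb was abundant in all 6 livers, from 84369 to 156594 CPM. The 2 intra.S livers differed from each other more than the livers of the other groups did: of 7261 genes with a mean of at least 10 CPM over the 6 livers, 285 differed over 4-fold between them, against 39 between the intra.C livers and 19 between the sham livers, where 3 genes at 0 in both were not compared. Since all 6 livers share one estimate of the spread, this pair sets the precision of each test below, and results that rest on it are given with and without each intra.S liver. Nothing in the labels says whether replicates were separate mice, so p-values measure the spread between these samples. In bulk liver, fewer cells of a type and less RNA per cell cannot be told apart.

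**Figure D1:**
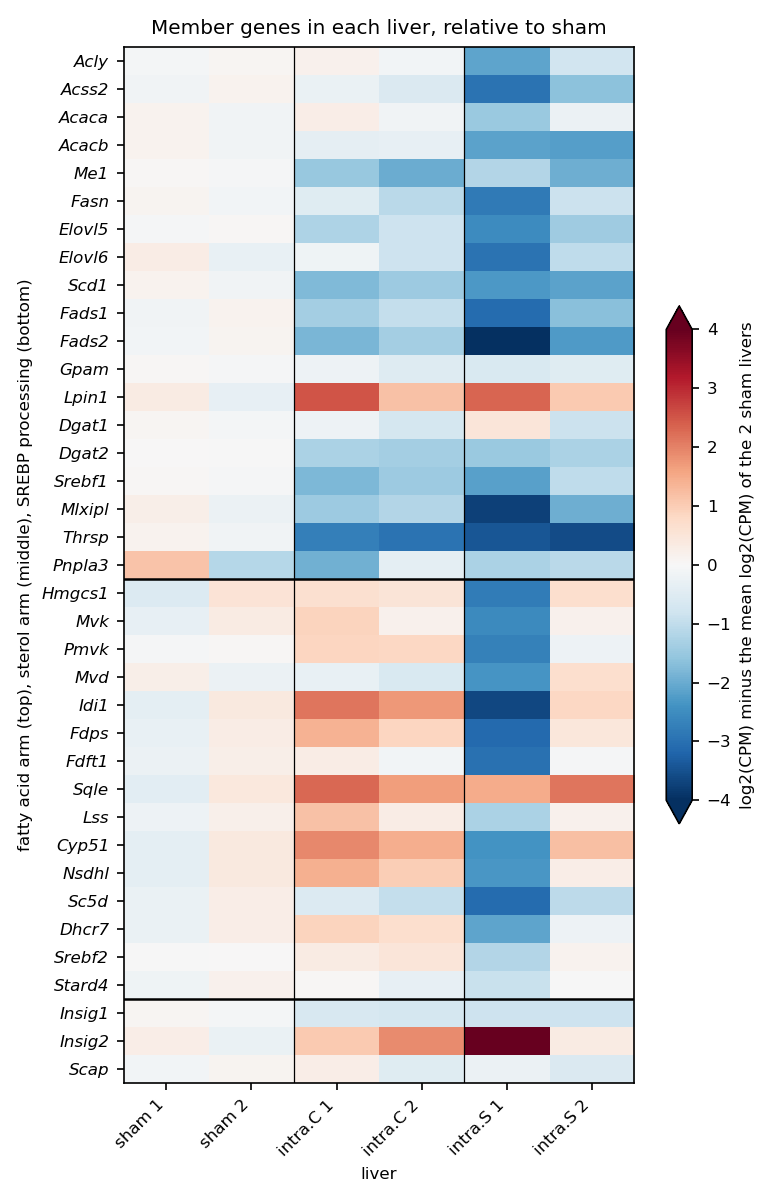
Heat map of the 37 member genes (rows) in the 6 livers (columns), as log2(CPM) minus the mean log2(CPM) of the 2 sham livers, with colors saturating at -4 and 4. Most fatty acid arm rows are blue in all 4 tumor-bearing livers, whereas sterol arm rows are mostly red in both intra.C livers, blue in intra.S 1 apart from Sqle, and near sham in intra.S 2.

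The first question was whether fatty acid synthesis genes differed from sham in the livers of mice with tumors. Most genes of the arm had lower levels than in sham, 16 of 19 by sign in intra.C and 18 of 19 in intra.S. Against sham, 4 of its 19 genes were called lower in intra.C (Scd1, Me1, Thrsp and Dgat2) and 10 of 19 in intra.S, and no gene of the arm was called higher in either. A gene was called where edgeR's quasi-likelihood test gave an adjusted p under 0.05 over all genes tested. The background of such calls was 2.38% lower and 4.92% higher among all 16370 genes in intra.C, and 3.95% lower and 6.78% higher in intra.S, and the arm's share called lower lay above it in both. The median log2 fold change of the arm was -1.02 in intra.C and -1.57 in intra.S, beside 0.01 and 0.04 for all genes tested. The intra.S median was -1.43 without intra.S 1, -2.18 without intra.S 2 and -2.12 on the log2(TPM + 0.1) scale, and the intra.C median was -0.62 without sham 1. Both livers lay below both sham livers for 14 of 19 genes in intra.C (34% of all genes tested) and for 16 of 19 in intra.S (30%). The exception in the upward direction was Lpin1. The summed TPM of the arm, the authors' per-length unit, was 5978 and 5544 in the sham livers, 1691 and 1834 in intra.C and 856 and 1170 in intra.S.

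**Figure D2:**
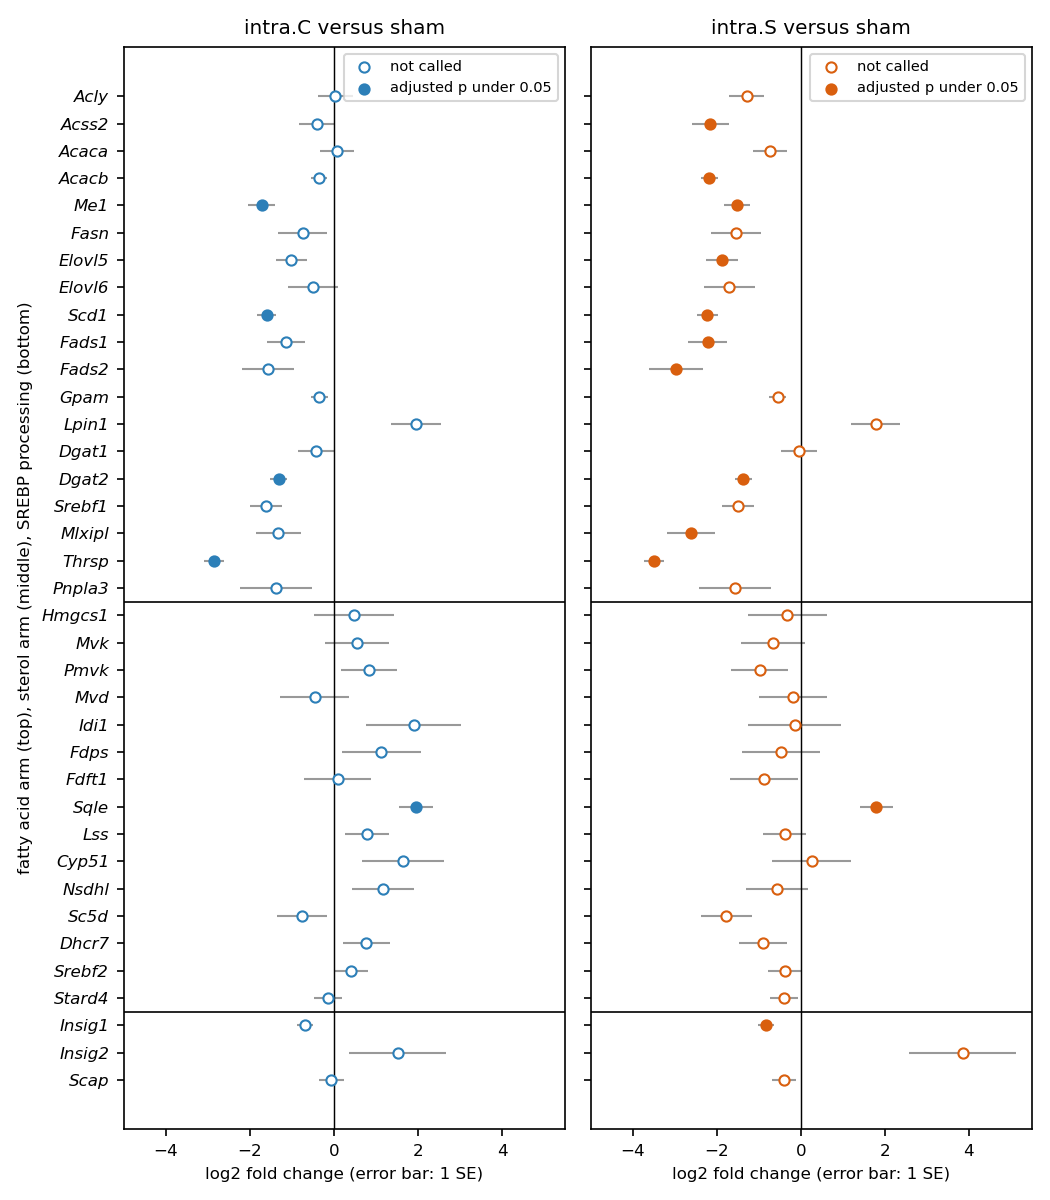
Log2 fold change against sham with 1 SE for each of the 37 genes, intra.C on the left and intra.S on the right, filled where edgeR's adjusted p was under 0.05. In the fatty acid arm, 4 points on the left and 10 on the right are filled, all below 0, and in the sterol arm Sqle is the one filled point in each panel.

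The counts called depended on which livers entered the fit. With sham and intra.C alone, and equally with either intra.S liver left out, 10 fatty acid arm genes were called lower in intra.C, the 4 above plus Fasn, Elovl5, Srebf1, Mlxipl, Fads1 and Fads2, and 1 higher, Lpin1. Calls rose across all genes in these fits too: 14.2% were called lower and 16.3% higher with the 2 groups alone, 12% and 14.5% without intra.S 1, and 12% and 14.4% without intra.S 2. For intra.S, leaving out intra.S 2 gave 16 genes called lower, where 15.4% of all genes were. Sham and intra.S alone, or leaving out either intra.C liver, gave 3 (Acacb, Scd1 and Thrsp), where 0.734% of all genes were called lower with the 2 groups alone, 0.954% without intra.C 1 and 0.817% without intra.C 2. A group left with 1 liver was assumed to vary like the other groups, which supply the spread. DESeq2 added Srebf1 and Fads2 in intra.C, and Acly, Fasn, Elovl6 and Srebf1 in intra.S, to the genes called lower, where it called 6.09% and 7.81% of all genes lower. Leaving out a sham liver left no gene called in any comparison, among members or among the other genes tested, so that setting says nothing about the members. Leaving out an intra.C liver left no member called in intra.C, where 62 of all genes were called higher and 3 lower without intra.C 1, and 57 and 4 without intra.C 2.

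Among the regulators, Thrsp had the largest decrease of all members in both comparisons. Thrsp, also called Spot 14, is a small protein that follows the lipogenic program in liver. Its level was 1002 and 831 CPM in the sham livers, 136 and 117 in intra.C and 85.1 and 77.2 in intra.S, with no overlap between the tumor groups and sham. Thrsp was 7.24-fold lower in intra.C (log2 fold change -2.86, SE 0.23, edgeR adjusted p = 0.0058) and 11.3-fold lower in intra.S (-3.50, SE 0.24, edgeR adjusted p = 0.00443). Per length it was the most abundant member in sham, at a mean of 1869 TPM, and it held rank 5 among the members in intra.C and rank 6 in intra.S. Mlxipl, which encodes ChREBP, was 196 and 139 CPM in sham, 60.6 and 73.3 in intra.C and 12.5 and 42.6 in intra.S. Its tumor groups lay below sham without overlap, and it was called lower in intra.S (-2.61, SE 0.56, edgeR adjusted p = 0.0374) but not in intra.C (-1.32, SE 0.54, edgeR adjusted p = 0.177). Srebf1 was 112 and 105 CPM in sham, 31.3 and 39.6 in intra.C and 23.8 and 53.4 in intra.S, again without overlap. Its log2 fold changes of -1.61 (SE 0.39) and -1.49 (SE 0.38) missed the threshold in both comparisons (edgeR adjusted p = 0.0577 and 0.0573), while DESeq2, and edgeR without a filter on low counts, called it lower in both. Pnpla3, a lipid droplet protein and SREBP1c target, had 3.40 CPM in sham 1 and 0.702 in sham 2, and its level in the other 4 livers, 0.407 to 1.18, overlapped with them.

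All 3 desaturases were called lower in intra.S, and Scd1 also in intra.C. Scd1, the stearoyl-CoA desaturase that makes monounsaturated fatty acids, was 2598 and 2126 CPM in sham, 694 and 859 in intra.C and 479 and 534 in intra.S. It was 3.04-fold lower in intra.C (-1.61, SE 0.24, edgeR adjusted p = 0.0182) and 4.66-fold lower in intra.S (-2.22, SE 0.24, edgeR adjusted p = 0.0072). Fads1 and Fads2 encode the delta-5 and delta-6 desaturases of polyunsaturated fatty acids and are both on chromosome 19. Fads2 was 1098 and 1255 CPM in sham, 330 and 458 in intra.C and 57.7 and 242 in intra.S. Fads1 was 627 and 751 CPM in sham, 265 and 356 in intra.C and 82.0 and 216 in intra.S. Both were below sham in all 4 tumor-bearing livers, with intra.S 1 the lowest, and were called lower in intra.S (Fads2 -2.97, SE 0.65, and Fads1 -2.21, SE 0.47, edgeR adjusted p = 0.0381 and 0.0351). In intra.C their log2 fold changes were -1.58 and -1.15 and were not called (edgeR adjusted p = 0.163 and 0.165). Reads shared among the close Scd paralogs could have been left out by the counting of uniquely mapped reads, so the Scd1 level carries that uncertainty.

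Of the 5 genes that supply acetyl-CoA, malonyl-CoA and NADPH, 1 was called lower in intra.C (Me1) and 3 in intra.S (Acacb, Me1 and Acss2), and none was called between the 2 conditions. Acly, which makes cytosolic acetyl-CoA from citrate, was 173 and 191 CPM in sham, 203 and 169 in intra.C and 42.1 and 107 in intra.S. Acaca, the cytosolic acetyl-CoA carboxylase that makes malonyl-CoA for synthesis, was 84.2 and 70.6 CPM in sham, 92.7 and 69.6 in intra.C and 27.5 and 65.6 in intra.S. For both, intra.C overlapped with sham and both intra.S livers lay below it. Their log2 fold changes in intra.C were 0.03 and 0.07, and the sign turned without TMM scaling and on the TPM scale. Neither was called in intra.S (Acly -1.29, SE 0.42, and Acaca -0.73, SE 0.41, edgeR adjusted p = 0.1 and 0.28).

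Acacb and Acss2 were called lower in intra.S and not in intra.C. Acacb, the mitochondrial carboxylase whose malonyl-CoA restrains fatty acid oxidation, was 75.2 and 61.9 CPM in sham, 52.9 and 53.8 in intra.C and 15.5 and 14.8 in intra.S. It was 4.52-fold lower in intra.S (-2.18, SE 0.20, edgeR adjusted p = 0.00578) and 1.28-fold lower in intra.C (-0.36, SE 0.19, edgeR adjusted p = 0.275). Acss2, which makes acetyl-CoA from acetate, was 129 and 153 CPM in sham, 118 and 94.0 in intra.C and 18.1 and 45.5 in intra.S. Its log2 fold change was -2.15 in intra.S (SE 0.44, edgeR adjusted p = 0.0321) and -0.41 in intra.C (SE 0.42, edgeR adjusted p = 0.572). In the direct comparison of intra.S with intra.C, Acacb was 1.81 lower and Acss2 1.73 lower on the log2 scale, and edgeR did not call either (adjusted p = 0.207 and 0.285), whereas DESeq2 called both. Me1, the malic enzyme that yields NADPH, was called lower in both conditions (-1.72, SE 0.32, edgeR adjusted p = 0.0316, and -1.51, SE 0.31, edgeR adjusted p = 0.0336). Its level was 154 and 147 CPM in sham, 52.9 and 38.4 in intra.C and 66.5 and 38.7 in intra.S.

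Of the 3 genes of chain synthesis and elongation, Elovl5 was called lower in intra.S and none was called in intra.C. Fasn, the fatty acid synthase, was 155 and 133 CPM in sham, 103 and 68.3 in intra.C and 20.3 and 78.2 in intra.S. All 4 tumor-bearing livers lay below both sham livers, but the log2 fold changes of -0.74 (SE 0.58) and -1.54 (SE 0.59) were not called (edgeR adjusted p = 0.457 and 0.14). Elovl5, an elongase of polyunsaturated chains, was 448 and 468 CPM in sham, 194 and 257 in intra.C and 80.6 and 169 in intra.S, and was called lower in intra.S (-1.87, SE 0.38, edgeR adjusted p = 0.0313). Elovl6, an elongase of saturated chains, was 84.2 and 56.7 CPM in sham, 61.4 and 38.9 in intra.C and 9.01 and 34.4 in intra.S. Elovl6 overlapped with sham in intra.C, lay below it in intra.S and was called in neither.

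Of the 4 triglyceride assembly genes, Dgat2 was called lower in both conditions and the other 3 were called in neither. Dgat2, the acyltransferase that uses newly made fatty acids for the last step, was 533 and 511 CPM in sham, 216 and 204 in intra.C and 187 and 219 in intra.S. It was called lower in both conditions by nearly the same amount (-1.31, SE 0.20, edgeR adjusted p = 0.0201, and -1.36, SE 0.20, edgeR adjusted p = 0.0151). The other last-step enzyme, Dgat1, was 20.6 and 18.6 CPM in sham and between 10.8 and 27.4 in the other livers, and was not called. Gpam, which starts triglyceride assembly in mitochondria, was 159 and 149 CPM in sham and between 102 and 133 in the tumor-bearing livers, all below sham, with differences that were not called (-0.35 and -0.54). Lpin1, a phosphatidate phosphatase and transcriptional coregulator that is known to be induced by fasting and glucocorticoids in liver, was higher in all 4 tumor-bearing livers, at 151 and 94.1 CPM in sham, 678 and 270 in intra.C and 597 and 244 in intra.S. Its log2 fold changes of 1.95 (SE 0.59) and 1.78 (SE 0.59) missed the threshold (edgeR adjusted p = 0.0972 and 0.102). With sham and intra.C alone Lpin1 was called higher (edgeR adjusted p = 0.019), and DESeq2 called it in both comparisons.

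**Figure D3:**
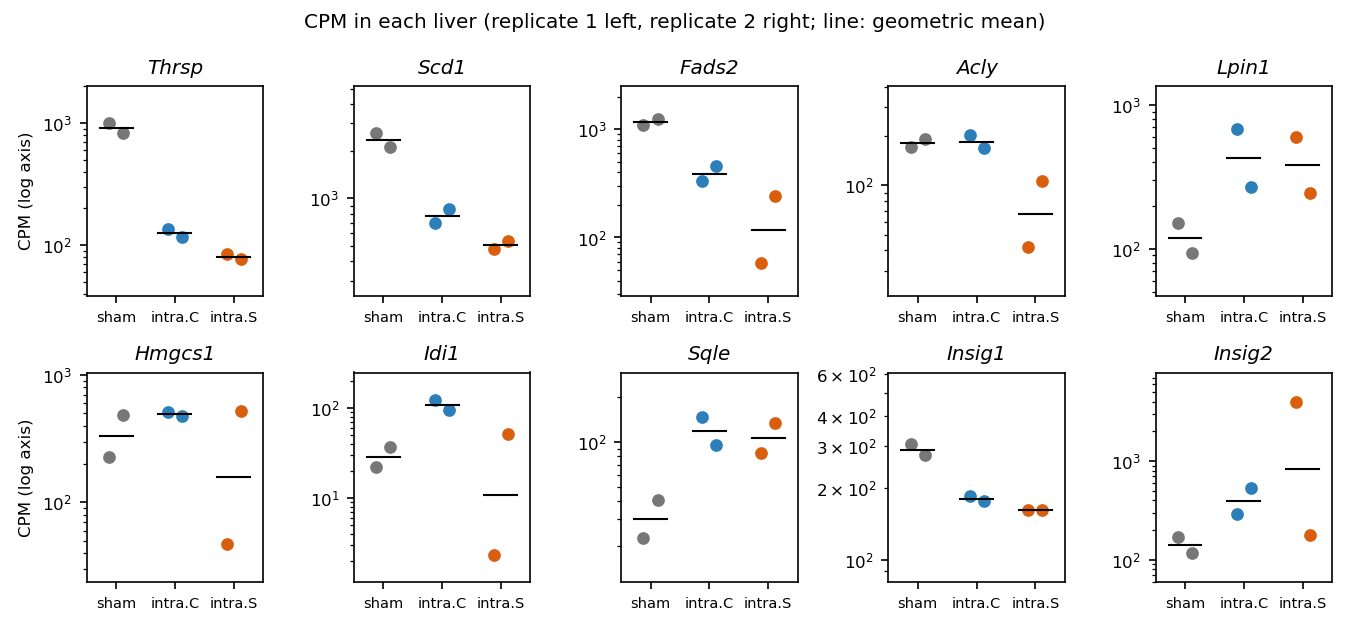
CPM on a log axis for 10 members in each liver, replicate 1 to the left and replicate 2 to the right within each group, with the geometric mean as a line. Thrsp and Scd1 form tight pairs below sham, Lpin1 and Sqle lie above sham in all 4 tumor-bearing livers, and Hmgcs1, Idi1 and Insig2 split the intra.S livers.

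The second question was whether the sterol arm followed the fatty acid arm. In intra.C the signs of most of its genes were opposite to those of the fatty acid arm. Of the 15 sterol arm genes, 12 had a positive log2 fold change in intra.C, with a median of 0.76, and 9 had both intra.C livers above both sham livers, against 34.4% of all genes tested. The median was 0.50 without TMM scaling and 0.52 on the log2(TPM + 1) scale, settings that moved the median of all genes by -0.26 and -0.11. In the fit over all 6 livers only Sqle was called higher (6.67% of the arm beside 4.92% of all genes) and none lower. With sham and intra.C alone 8 were called higher, namely Sqle, Idi1, Cyp51, Nsdhl, Fdps, Pmvk, Dhcr7 and Srebf2, and 1 lower, Sc5d, in a fit that called 16.3% of all genes higher and 14.2% lower. With either intra.S liver left out the counts were 7 and 1, without Srebf2. The median of the fatty acid arm minus that of the sterol arm was -1.78 in intra.C on the log2 scale, and between -1.14 (without sham 1) and -2.09 (without intra.C 2) with 1 liver left out. Within livers this difference was -2.11 and -1.35 in intra.C, against 0.35 and -0.35 in the sham livers.

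Sqle, squalene monooxygenase, the first oxygenation step of sterol synthesis, was the one sterol arm gene above sham in all 4 tumor-bearing livers. It was 22.5 and 40.3 CPM in sham, 147 and 95.8 in intra.C and 84.4 and 134 in intra.S. The increase was 3.86-fold in intra.C (1.95, SE 0.40, edgeR adjusted p = 0.0395) and 3.47-fold in intra.S (1.80, SE 0.40, edgeR adjusted p = 0.039). Both calls were lost without TMM scaling (edgeR adjusted p = 0.0555 and 0.0576) and on the log2(TPM + 1) scale with limma (adjusted p = 0.0585 and 0.0682). They were also lost on the log2(TPM + 0.1) scale, and the sign stayed positive in each setting. The intra.S call was lost too with sham and intra.S alone (edgeR adjusted p = 0.0755) and without either intra.C liver. Relative to the next enzyme, Lss, the TPM of Sqle was 1.22 and 1.66 times as high in the sham livers, 3.08 and 3.69 times in intra.C and 9.66 and 5.55 times in intra.S.

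None of the 6 mevalonate genes, which lead to farnesyl diphosphate, was called in intra.C. Of the 6, 3 had both intra.C livers above both sham livers, against 34.4% of all genes tested. Idi1, isopentenyl diphosphate isomerase, was 22.0 and 37.6 CPM in sham, 126 and 95.6 in intra.C and 2.30 and 51.4 in intra.S. Fdps, which makes farnesyl diphosphate, was 126 and 191 CPM in sham, 409 and 281 in intra.C and 18.1 and 210 in intra.S. Pmvk, phosphomevalonate kinase, was 36.1 and 38.3 CPM in sham, 67.3 and 65.7 in intra.C and 5.75 and 32.0 in intra.S. All 3 had both intra.C livers above both sham livers, with log2 fold changes of 1.89 (SE 1.13), 1.12 (SE 0.94) and 0.84 (SE 0.67), and none was called in the fit of 6 livers (edgeR adjusted p = 0.335, 0.49 and 0.468). With sham and intra.C alone the edgeR adjusted p was 0.00473 for Idi1 and 0.0197 for Fdps, at the same size. Hmgcs1, the cytosolic HMG-CoA synthase, was 226 and 483 CPM in sham, 512 and 475 in intra.C and 47.1 and 522 in intra.S, so the sham livers themselves spanned a wide range and intra.C overlapped with them. Mvk, mevalonate kinase, likewise overlapped with sham in intra.C at 15.1 and 23.6 against 34.8 and 21.4 CPM. Mvd, mevalonate diphosphate decarboxylase, was the mevalonate gene with a negative sign in intra.C, at 8.77 and 6.38 against 6.06 and 4.95 CPM (-0.46, SE 0.81). In exon annotation of the same assembly (GENCODE M21), Fdps shared 26.7% of its exon bases with another gene model on its strand, and Hmgcs1, Idi1 and Fdft1 shared 12.1%, 9.22% and 18.3% with genes on the opposite strand. The strand setting of the counting was not given in the sources used here, so reads in those stretches cannot be assigned to 1 gene.

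Of the 7 genes past farnesyl diphosphate, Sqle was called higher in intra.C, and 6 of 7 had a positive log2 fold change. Cyp51, lanosterol demethylase, was 73.9 and 128 CPM in sham, 368 and 265 in intra.C and 18.6 and 222 in intra.S. Nsdhl, which works on the following demethylation, was 41.6 and 70.2 CPM in sham, 144 and 108 in intra.C and 10.8 and 65.0 in intra.S. Dhcr7, the last enzyme before cholesterol on one route, was 52.6 and 76.7 CPM in sham, 119 and 101 in intra.C and 14.8 and 54.6 in intra.S. Their log2 fold changes in intra.C were 1.65 (SE 0.97), 1.17 (SE 0.74) and 0.76 (SE 0.56), all without overlap with sham and none called (edgeR adjusted p = 0.327, 0.364 and 0.43). Lss, lanosterol synthase, was 46.1 and 60.8 CPM in sham and 119 and 64.9 in intra.C. Fdft1, squalene synthase, was near sham in intra.C (0.09, SE 0.80), with a sign that turned without TMM scaling and on the TPM scale. Sc5d, the sterol C5 desaturase, had a negative sign, at 228 and 334 CPM in sham, 189 and 142 in intra.C and 32.6 and 133 in intra.S, below sham in all 4 livers (-0.76, SE 0.60, and -1.77, SE 0.62, edgeR adjusted p = 0.462 and 0.116). The regulator Srebf2 was 31.6 and 32.6 CPM in sham and 40.3 and 45.2 in intra.C (0.41, SE 0.40), and Stard4, a sterol carrier and SREBP target, overlapped with sham (-0.15, SE 0.34). The TPM of Srebf1 relative to Srebf2 was 3.17 and 2.88 in the sham livers, 0.694 and 0.785 in intra.C and 1.50 and 1.35 in intra.S.

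**Figure D4:**
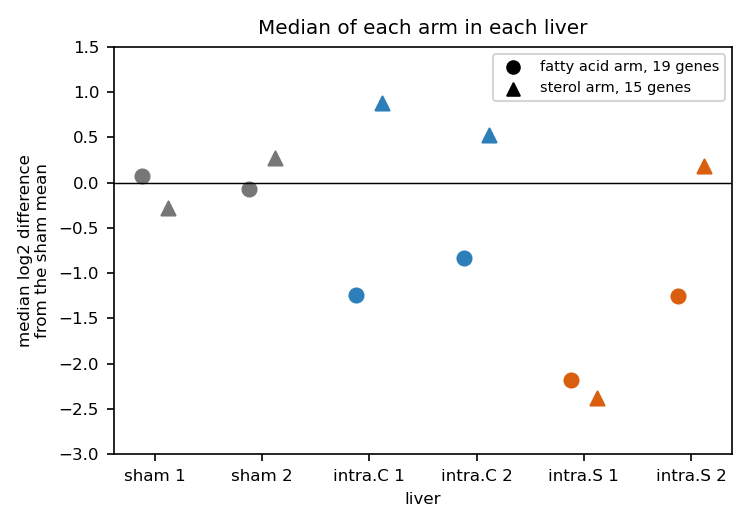
Median over genes of the log2 difference from the sham mean, for the fatty acid arm (circles, 19 genes) and the sterol arm (triangles, 15 genes), in each liver. The arms lie apart in both intra.C livers (-1.24 and 0.88, -0.83 and 0.52) and in intra.S 2 (-1.25 and 0.19), whereas both are low in intra.S 1 (-2.18 and -2.38).

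In intra.S the sterol arm had no common level. Its median log2 fold change was -0.40, with 13 of 15 genes negative, 1 called higher (Sqle, 6.67% beside 6.78% of all genes) and none called lower, and the difference between the arms' medians was -1.17. On the log2(TPM + 1) scale the median was -1.31. Only Sqle had both intra.S livers above both sham livers (30.4% of all genes tested), and Pmvk and Sc5d had both below. The summed TPM of the arm was 757 and 1198 in the sham livers, 1644 and 1333 in intra.C, and 177 in intra.S 1 against 1063 in intra.S 2. Every one of the 15 sterol arm genes was higher in intra.S 2 than in intra.S 1 (51.3% of all genes tested). The ratio was over 2 for 13 of 15 (16.4% of all genes) and over 5 for 9 of 15 (5.35%), with a median of 6.01 and a maximum of 22.3 for Idi1. Among 7269 genes whose mean over these 2 livers was above 10 CPM, ranked by this ratio after adding 0.1 CPM to each level, Idi1 held rank 6, Cyp51 20th, Fdps 21st and Hmgcs1 23rd. Sqle was the least unequal of the arm, at 1.59, and Stard4 followed at 1.86. In the fatty acid arm 10 of 19 genes had a ratio over 2 and none over 5, and Thrsp, Acacb, Scd1, Dgat2 and Gpam lay between 0.908 and 1.17.

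With 1 intra.S liver left out, the sterol arm gave opposite pictures. Without intra.S 2, 14 of 15 genes were called lower than sham, all but Sqle, where 15.4% of all genes were. This fit holds 1 intra.S liver and takes its spread from the other groups. The arm's median was -2.44 and the difference between the arms shrank to 0.25. Without intra.S 1, the median was 0.18, Sqle was called higher and Sc5d lower (9.58% and 6.93% of all genes), and the difference between the arms was -1.61. Cyp51 turned sign between these settings, from 1.15 without intra.S 1 (edgeR adjusted p = 0.0523) to -2.44 without intra.S 2 (edgeR adjusted p = 0.00398). Of the 19 fatty acid arm genes, 12 were called lower without intra.S 1 and 16 without intra.S 2. Sterol arm genes also differed together within the other groups, in smaller steps, with replicate 2 higher in sham and replicate 1 in intra.C. Sham 2 was above sham 1 in 14 of 15 genes (50% of all genes tested) with a median ratio of 1.46. Intra.C 1 was above intra.C 2 in 14 of 15 (49.9%) with a median ratio of 1.31.

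**Figure D5:**
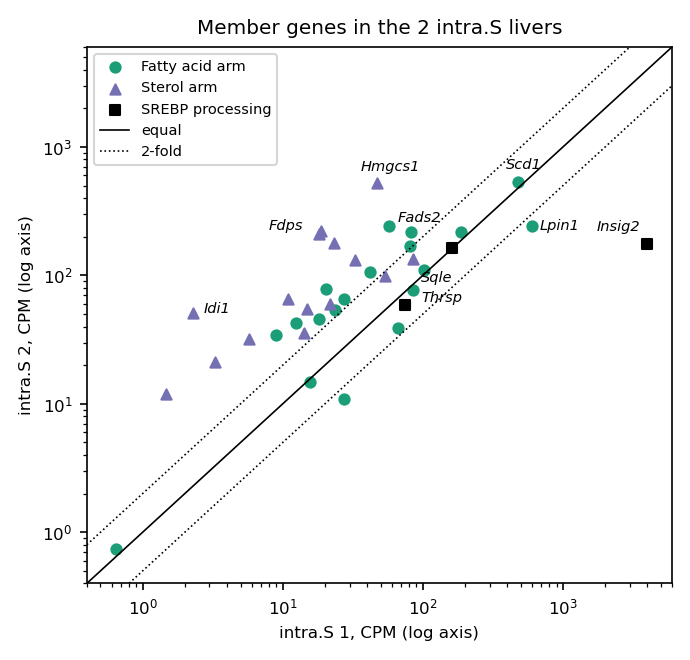
CPM of each member in intra.S 2 against intra.S 1, both on log axes, with the line of equal level and the 2-fold lines. Sterol arm genes (triangles) lie above the upper 2-fold line apart from Sqle and Stard4, most fatty acid arm genes (circles) lie near or above the line of equality, with Lpin1, Dgat1 and Me1 below it, and Insig2 stands far to the right at 3961 against 176 CPM.

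Of the 3 genes that hold or release SREBP precursors, Insig1 was called lower in intra.S, and Insig2 and Scap were called in neither comparison with sham. Insig1 was 304 and 274 CPM in sham, 184 and 176 in intra.C and 161 and 163 in intra.S, below sham in all 4 tumor-bearing livers. It was called lower in intra.S (-0.84, SE 0.19, edgeR adjusted p = 0.0419), a call lost with sham and intra.S alone (edgeR adjusted p = 0.103) and without either intra.C liver. In intra.C it was not called in the fit of 6 livers (-0.68, SE 0.19, edgeR adjusted p = 0.081) and was called with sham and intra.C alone (edgeR adjusted p = 0.00945). Insig2 was 169 and 118 CPM in sham, 288 and 528 in intra.C, 3961 in intra.S 1 and 176 in intra.S 2. All 4 tumor-bearing livers were above both sham livers, intra.S 2 by little, and the level of intra.S 1 was 22.5 times that of intra.S 2, rank 17 of 7269 genes by this ratio. The log2 fold changes were 1.51 in intra.C (SE 1.15, edgeR adjusted p = 0.447) and 3.85 in intra.S (SE 1.27, edgeR adjusted p = 0.101). Without intra.S 1 the latter was 0.31 and not called, without intra.S 2 it was 4.79 and called (edgeR adjusted p = 0.000265), and DESeq2 called it over all 6 livers. With sham and intra.C alone the former was called (edgeR adjusted p = 0.0142). The TPM of Insig2 relative to Insig1 was 0.209 and 0.162 in the sham livers, 0.590 and 1.13 in intra.C, 9.27 in intra.S 1 and 0.409 in intra.S 2. Scap was 81.7 and 93.9 CPM in sham and between 58.6 and 106 in the other livers, and was not called.

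The third comparison, intra.S against intra.C, called no member and none of all 16370 genes (0% in each direction), while an unadjusted p below 0.05 was reached by 1144 genes in the upward and 1049 in the downward direction, and DESeq2 called 234 and 272. At that unadjusted level 5 fatty acid arm and 2 sterol arm genes were lower in intra.S and none was higher. Both intra.S livers lay below both intra.C livers for 11 of 19 fatty acid arm genes and 10 of 15 sterol arm genes, against 21.5% of all genes tested, and above for none in either arm, against 21.9%. The median log2 difference was -0.80 for the fatty acid arm and -1.17 for the sterol arm, beside 0.03 for all genes. These medians were -0.53 and -0.40 without intra.S 1, and -1.49 and -3.09 without intra.S 2. Without intra.S 2, 10 fatty acid arm and 13 sterol arm genes were called lower than in intra.C, and Dgat1 and Insig2 higher, in a fit that called 9.02% of all genes lower and 7.53% higher. Without intra.S 1 only Acacb was called lower, beside 0.176% of all genes. The comparisons with sham share the sham livers, so their values for the members stand side by side and are not independent.

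Of 24 further fatty acid genes tested, 2 were called lower and 1 higher in intra.C, and 3 lower and 1 higher in intra.S. These are 8.33% and 4.17% in intra.C, and 12.5% and 4.17% in intra.S. Of all genes tested, 2.38% were called lower and 4.92% higher in intra.C, and 3.95% and 6.78% in intra.S. The share called higher thus did not exceed that of all genes. The higher gene in both was Scd2, an Scd1 paralog more typical of other tissues, at 2.81 and 2.78 CPM in sham, 6.95 and 8.23 in intra.C and 23.3 and 17.9 in intra.S (1.44 and 2.88, edgeR adjusted p = 0.027 and 0.00578). Lower in intra.C were Mid1ip1, the partner of Thrsp that stimulates acetyl-CoA carboxylase (-2.39, edgeR adjusted p = 0.0371), and Aacs, acetoacetyl-CoA synthetase (-1.32, edgeR adjusted p = 0.0471). Lower in intra.S were Acsl1, a long-chain acyl-CoA synthetase (-1.46), the mitochondrial citrate carrier Slc25a1 (-1.21) and Gpat4, which starts triglyceride assembly in the endoplasmic reticulum, at 158 and 137 CPM in sham and 81.1 and 66.0 in intra.S (edgeR adjusted p = 0.0335). Of 11 genes of NADPH supply and sugar breakdown, 1 was called lower in intra.S (9.09%) and none in intra.C. It was Tkt, transketolase (-0.94, edgeR adjusted p = 0.0317). Of 17 further sterol genes tested, 1 was called higher in both conditions and 1 lower in intra.S (5.88% each). The higher one was Soat1, which esterifies cholesterol and is typical of macrophages (2.21 and 2.02). The lower one was Tm7sf2, a sterol reductase of the pathway (-1.43). Among 15 upstream regulators, 2 were called lower in intra.S (13.3%) and none was called in intra.C. They were Irs1, an adaptor of the insulin receptor, and Ppara, the fatty acid sensor (-2.33 and -1.38, edgeR adjusted p = 0.0204 and 0.0303).

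Genes that follow feeding and the clock were looked at as lists, and their part in the results above was not tested. Of 14 genes that follow feeding, 1 was called higher and 1 lower in each tumor group (7.14% in each direction). Among all genes tested, 4.92% were called higher and 2.38% lower in intra.C, and 6.78% and 3.95% in intra.S. By sign the list was mixed, with 8 positive and 6 negative in intra.C and 7 and 7 in intra.S. Its median log2 fold changes were 0.07 and -0.22. The gene called higher was Igfbp1, at 71.8 and 20.6 CPM in sham, 4473 and 770 in intra.C and 4209 and 1388 in intra.S. The gene called lower was Acot1. The summed level of that list was 7497 to 9983 CPM in sham, 9803 to 17052 in intra.C and 8762 to 12727 in intra.S. Of 15 clock genes tested, Hlf was called lower in both tumor groups and Tef in intra.S, and none was called higher. The share called lower was 6.67% in intra.C and 13.3% in intra.S, beside 2.38% and 3.95% of all genes. The antiphase pair Arntl and Dbp differed between replicates of 1 group. Arntl was at 20.7 CPM in intra.S 1 and 1.89 in intra.S 2, and Dbp at 1.34 and 8.93. The summed level of the clock list was 550 to 595 CPM in sham, 438 to 581 in intra.C, which overlapped with sham, and 389 to 495 in intra.S, which did not.

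Immune cell markers were higher in every tumor-bearing liver, and their part in the results above was not tested. All 11 neutrophil markers were called higher in both conditions, their sum was 3.84 to 5.07 CPM in sham, 289 to 644 in intra.C and 433 to 1084 in intra.S, and 3 of them were at 0 counts in each sham liver. Of 9 macrophage markers 8 and 7 were called higher, with sums of 157 to 159 CPM in sham, 646 to 860 in intra.C and 496 to 836 in intra.S. Of 10 proliferation markers 2 and 6 were called higher, with sums of 10.1 to 17.6, 32.0 to 41.2 and 78.8 to 93.4 CPM. The 14 hepatocyte markers summed to 115808 to 121214 CPM in sham, 114914 to 156316 in intra.C and 140091 to 193144 in intra.S. The highest sum was in intra.S 1. Alb, whose level is given above, makes up a large part of each sum. One hepatocyte marker was called higher in intra.C (Apob) and 1 lower in intra.S (Asgr2). Of 7 adipocyte markers, Adipoq, Plin1 and 3 more had no row in the count table used here, Plin4 was not called, and Fabp4, which macrophages and endothelium also express, was called higher in intra.S (4.34, SE 0.75, edgeR adjusted p = 0.0214) and was 145 CPM in intra.S 1 and between 3.85 and 28.6 elsewhere. Of 9 epithelial tumor markers, 7 were tested and Krt18, which hepatocytes also express, was called higher in intra.S, while the defining marker Epcam was at or below 0.702 CPM in all 6 livers. Of 8 exocrine pancreas markers 3 were listed, and the 2 tested, Cela1 and Amy2a5, were not called.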

How the data were processed

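Livers were sequenced as poly(A) libraries (NEBNext Ultra). Per the study's methods and the submitters' processing notes, reads were aligned with HISAT2 2.1.0 to mm10 and uniquely mapped exonic reads were counted per gene with featureCounts (Subread 2.0.6); the annotation and strand setting were not given in the sources used here. The authors deposited raw counts and TPM. Each of the 6 count columns and 6 TPM columns was matched to its sample by name.

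Here, counts were scaled by TMM, filtered with filterByExpr (minimum count 10) and tested in R 4.3.3 with edgeR 4.0.16 (quasi-likelihood, 1 fit over 6 livers, Benjamini-Hochberg over all genes tested). Alternatives used DESeq2 1.42.0, limma 3.58.1 on log2(TPM + 1) or log2(TPM + 0.1), other filters and scalings, 2-group fits, a replicate block and each liver left out. With 2 against 2 livers an exact permutation test cannot go below p = 0.333, so none was used. The scripts were tested on simulated data. Member genes and lists were chosen with earlier results of these data known. Named genes were all members plus, of each other pathway list, up to 3 called genes per direction and comparison, and of marker lists their sums, counts and defining markers. Genes named beyond that rule (Arntl, Dbp, Hlf, Tef, Igfbp1 and Acot1 of the clock and feeding lists, and Apob, Asgr2, Plin4, Fabp4, Krt18, Cela1 and Amy2a5 of the marker lists) were chosen after their values were seen. The floor at 3 counts covers counting error only, whereas each SE comes from the edgeR fit and includes the spread between livers.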

Additional observations from a re-analysis of the deposited data

Results flagged for a closer look

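Pmvk, phosphomevalonate kinase, stood out because both intra.C livers lay above both sham livers and both intra.S livers below both. The log2 fold change of intra.S minus intra.C was -1.82 (SE 0.69), and over 16 other settings it ranged from -3.54 to -1.06. In the fit of 6 livers the direct edgeR test of that difference did not pass (adjusted p = 0.352). Opposite directions are therefore a description of these 4 livers. Of the intra.S livers, intra.S 2 was near sham (32.0 CPM against 36.1 and 38.3) and intra.S 1 was far below (5.75 CPM).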

How the results depend on the processing

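Before the values, the limits: groups of 2 livers share 1 spread per gene, which the intra.S pair widens where its livers differ. Calls lost with a sham liver left out say nothing, since no gene was then called.

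In intra.C versus sham, fatty acid arm genes called higher went from 0 to 1 with DESeq2, with the replicate block and with only the 2 groups compared, and ranged from 0 to 1 with 1 liver left out. Those called lower went from 4 to 10 with only the 2 groups compared (0 to 10 with 1 liver left out). Sterol arm genes called higher went from 1 to 8 with only the 2 groups compared and to 0 without TMM and on both TPM scales (0 to 7 with 1 liver left out), and those called lower from 0 to 1 with only the 2 groups compared (0 to 1). The difference between the arms' medians, -1.78, ranged from -2.09 to -1.14 with 1 liver left out.

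In intra.S versus sham, fatty acid arm genes called higher went from 0 to 1 with DESeq2 and with the replicate block (0 to 1 with 1 liver left out), and those called lower from 10 to 3 with only the 2 groups compared (0 to 16). Sterol arm genes called higher went from 1 to 0 with only the 2 groups compared, without TMM and on both TPM scales (0 to 1), and those called lower from 0 to 1 with DESeq2 (0 to 14). The difference between the arms' medians, -1.17, ranged from -1.64 to 0.25 with 1 liver left out.

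In intra.S versus intra.C, fatty acid arm genes called lower went from 0 to 2 with DESeq2 (0 to 10 with 1 liver left out), those called higher ranged from 0 to 1, and sterol arm genes called lower from 0 to 13. The arms' difference, 0.37, ranged from -0.12 to 1.60. Without intra.S 2, Cyp51 turned to -2.44 against sham and Mvd to -1.92 against intra.C, both called, beside 1.15 and 1.11 without intra.S 1. The cause of these changes was not tested beyond the fewer livers or genes each setting holds.

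Same-numbered samples did not deviate together (correlations of -0.03 for sham and intra.C, 0.08 for sham and intra.S, and 0.04 for intra.C and intra.S), and nothing in the labels pairs them, so the replicate block stands here only. Under the block 673 genes were called higher and 259 lower in intra.C, and 954 and 553 in intra.S. It added Lpin1 and Srebf1 in both comparisons with sham and dropped Insig1 in intra.S, and changed no other call of a member.

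Members whose values were near 0 changed sign uncalled in 16 further cases outside the fits with 1 liver left out, namely Acaca, Acly and Fdft1 in intra.C, Cyp51 in intra.S and Srebf1 and Mvd in the direct comparison. The lowest count of any member in any liver was 16.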
